A study of Mus musculus with 4 samples.

Results

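The table of differentially accessible regions held 77 ATAC-Seq peaks assigned to a gene whose symbol begins with Slc and a digit, the naming pattern of the solute carriers, among 5332 peaks in all. The 77 peaks carried 56 gene symbols of the 4376 in the table. Of these, 53 symbols with 74 peaks were transporter genes. The other 3 symbols fit the pattern without being transporters, with 1 peak each: Slc13a2os, an opposite-strand transcript, Slc25a5-ps, a pseudogene, and Slc9a3r1, a scaffold protein. Every one of the 77 peaks was more accessible in Sin3B-/- than in Sin3B+/+ cells, with a median log2 fold change of 0.80. That is close to the median of 0.76 over the whole table, where 95.7% of peaks were called higher. Among the members, peaks inside gene bodies had the largest changes on the median, and promoter peaks the smallest.

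Accessibility was measured by ATAC-Seq, in which the Tn5 transposase inserts sequencing adapters into open DNA more readily than into DNA wrapped in nucleosomes. The cells were long-term hematopoietic stem cells (LT-HSCs) sorted from bone marrow of C57BL/6 mice at homeostasis as lineage-negative, Sca-1+, cKit+, Flk2-, CD48- and CD150+ cells. There were 2 Sin3B+/+ and 2 Sin3B-/- libraries, each made from the cells of 2 mice, or 8 mice in all. Sin3B is a scaffold of a histone deacetylase corepressor complex, and the comparison asks where its loss changes accessibility. The Sin3B-/- mice had 2 floxed Sin3B alleles and the Vav1-iCre transgene, which deletes in all blood lineages from before birth, so the adult LT-HSCs had developed without Sin3B. The control libraries are labelled wild type, and the study writes their genotype both as Sin3B+/+ and as Sin3B F/F. Whether the controls carried the floxed alleles, and the age of these mice, are not given in the sources used here. No peak of the table lay in Sin3b, so the deletion could not be checked in these libraries. Of the LT-HSC markers looked up, Procr and Slamf1 had 3 peaks between them, while Kit, Ly6a, Mecom and Hlf had none. The 3 peaks were higher in Sin3B-/-, as were 95.7% of the table's peaks. The markers of other blood lineages had 0 peaks. A table limited to peaks that differ cannot show which other markers were accessible.

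Solute carriers are membrane proteins that move amino acids, sugars, ions, metals, nucleosides, vitamins and mitochondrial metabolites across the plasma membrane and the membranes of organelles. They work as facilitators, exchangers or cotransporters driven by gradients of sodium, protons or the substrate itself, and numbered families group members of related sequence. In blood-forming cells they include the amino acid exchanger made of Slc3a2 and Slc7a5, the mitochondrial glycine carrier Slc25a38 needed for heme synthesis, and the zinc importers of the Slc39 family. A change in accessibility at such a gene is not a measure of its RNA or of transport.

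The regions on which the description turns are shown as 300-base windows centred on the peak, read from the plus strand of GRCm38. Capitals mark a match to any of the motifs searched, on either strand, so that ATTGG marks CCAAT on the minus strand. The first 3 are shown because they were among the Slc peaks called as gaining more than the median peak of the table.
Slc25a38, chr9:120115904-120116203: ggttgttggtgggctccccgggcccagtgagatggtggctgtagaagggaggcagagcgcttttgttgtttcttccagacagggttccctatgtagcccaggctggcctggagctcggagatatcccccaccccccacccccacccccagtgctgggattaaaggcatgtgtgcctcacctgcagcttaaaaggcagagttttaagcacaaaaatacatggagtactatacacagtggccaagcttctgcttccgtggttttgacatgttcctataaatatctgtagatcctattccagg
Slc3a2, chr19:8695412-8695711: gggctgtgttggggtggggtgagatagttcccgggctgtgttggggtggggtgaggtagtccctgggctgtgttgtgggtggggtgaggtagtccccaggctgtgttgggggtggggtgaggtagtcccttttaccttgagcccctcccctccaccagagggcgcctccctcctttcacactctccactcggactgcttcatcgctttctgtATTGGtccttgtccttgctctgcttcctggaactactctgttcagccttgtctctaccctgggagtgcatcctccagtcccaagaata
Slc4a5, chr6:83273732-83274031: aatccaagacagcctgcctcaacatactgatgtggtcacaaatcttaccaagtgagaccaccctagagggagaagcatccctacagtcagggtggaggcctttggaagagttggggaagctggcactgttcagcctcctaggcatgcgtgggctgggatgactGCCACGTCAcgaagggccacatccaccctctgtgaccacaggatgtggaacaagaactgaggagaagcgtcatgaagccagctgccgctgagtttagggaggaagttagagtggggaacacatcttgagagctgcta

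None of these windows covers an annotated exon. The Slc25a38 window held no match, the Slc4a5 window held an antioxidant response element and that of Slc3a2 a CCAAT box. In the Slc3a2 window, a short unit beginning gggctgtgttgggg recurs with small changes, and 23.3% of the window's bases are soft-masked as repeats in the RefSeq assembly. The share was 30.7% in the Slc25a38 window and 14% in that of Slc4a5, against a median of 7% over the windows of all peaks. Its part in these results was not tested.

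Another 3 windows, picked after their values were seen, are shown for contrast: the peak of Slc38a1 with the largest change of its 5, the peak in an intron of the amino acid exchanger Slc7a5, and a promoter, that of the mitochondrial carrier gene Slc25a39.
Slc38a1, chr15:96640649-96640948: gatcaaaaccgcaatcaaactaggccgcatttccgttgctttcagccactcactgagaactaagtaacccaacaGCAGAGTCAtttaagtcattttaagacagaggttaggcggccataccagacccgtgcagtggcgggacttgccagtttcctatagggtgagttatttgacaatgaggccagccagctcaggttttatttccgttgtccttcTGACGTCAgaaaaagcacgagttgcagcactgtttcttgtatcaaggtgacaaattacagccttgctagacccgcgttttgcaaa
Slc7a5, chr8:121898374-121898673: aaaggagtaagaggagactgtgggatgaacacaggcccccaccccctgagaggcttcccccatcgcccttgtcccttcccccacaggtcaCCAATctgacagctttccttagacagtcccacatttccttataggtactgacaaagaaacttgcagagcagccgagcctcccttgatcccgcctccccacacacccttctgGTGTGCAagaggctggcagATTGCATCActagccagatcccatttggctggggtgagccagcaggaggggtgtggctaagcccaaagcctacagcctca
Slc25a39, chr11:102408054-102408353: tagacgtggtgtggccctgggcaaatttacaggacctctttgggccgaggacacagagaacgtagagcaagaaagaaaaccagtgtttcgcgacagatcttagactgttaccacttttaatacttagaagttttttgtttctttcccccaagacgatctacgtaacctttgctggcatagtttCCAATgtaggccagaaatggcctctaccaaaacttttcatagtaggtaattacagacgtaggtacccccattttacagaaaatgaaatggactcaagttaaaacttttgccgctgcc

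The Slc38a1 window carried a full CRE, the palindrome TGACGTCA, and an antioxidant response element, and it lies in an exon of a retained-intron transcript. In the Slc7a5 window there were a CCAAT box, an MTF-1 core and an amino acid response element, and the Slc25a39 promoter window had a CCAAT box alone.

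The values are normalized read levels per peak, which the authors scaled with 1 factor per library. In the Sin3B+/+ libraries the 77 levels ran from 13.01 to 1801 in replicate 1, with a median of 155.2, and from 14.7 to 1566 in replicate 2, with a median of 129.2. In the Sin3B-/- libraries they ran from 39.99 to 2460 with a median of 259.9, and from 40 to 2926 with a median of 257.0. In each of the 77 peaks both Sin3B-/- libraries lay above both Sin3B+/+ libraries. The same was true of 95.7% of all peaks of the table. limma on log2(level + 1), with Benjamini-Hochberg adjustment over all 5332 peaks, called all 77 higher at an adjusted p of 0.05 or less, beside a background of 95.7% called higher. It called 0 Slc peaks lower, beside 4.29% of the table. The standard error of a log2 fold change was 0.215, a single value that limma pooled over all peaks. Adjusted p-values of the 77 ran from 1e-23 to 0.022. Because the table holds only peaks that the authors had already found to differ on these libraries, these calls are not independent of that choice. With 2 libraries per genotype, an exact two-sided permutation test of a single peak cannot go below p = 0.33.

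The log2 fold changes of the Slc peaks ran from 0.49 to 2.27, with quartiles of 0.63 and 1.07. A doubling or more was found at 23 of the 77 peaks, or 29.9%, compared with 22.4% of the table. The Slc peaks held the same share of the table's summed level in every library: 1.30% and 1.29% in Sin3B+/+, and 1.32% and 1.29% in Sin3B-/-. Across the table the library medians stood 0.75 higher in Sin3B-/- on the log2 scale, close to the Slc median of 0.80. That shift rests on the authors' scaling: within each library all levels were multiples of the same step, taken as 1 read after scaling, and in steps the Slc peaks summed to 113343 and 62312 in Sin3B+/+ but to 59798 and 40142 in Sin3B-/-. The medians are those of the table's peaks alone, of which 95.7% were called higher in Sin3B-/-. How much of the shift comes from the cells, the scaling or the choice of peaks that differ cannot be told apart here. Each library was therefore also centred on its median over the table. After centring, 45 of the 77 Slc peaks were above 0 and 32 below, with a median of 0.05. limma then called 6 of them higher, or 7.79% against 7.01% of the table, and 0 lower against 4.29%. Leaving out Sin3B-/- replicate 2 reduced the Slc calls to 51, or 66.2%, against 58.5% of the table. Of the 77, 49 were called whichever library was left out, or 63.6% against 58.9% of the table. Among promoter peaks these were 6 of 17, or 35.3% against 36.9%.

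Of the 6 peaks that gained beyond the shared shift, 5 are described here, at carriers of phosphate, glycine, amino acids, bicarbonate and nucleobases. At Slc20a2, a sodium-coupled phosphate transporter, the level was 13.01 and 14.74 in the Sin3B+/+ libraries and 68.1 and 73 in the Sin3B-/- libraries. That is a 5.08-fold difference, with means of 13.9 ± 1.22 and 70.5 ± 3.46 (SD, n = 2). The log2 fold change was 2.27 ± 0.215 (SE), with an adjusted p of 1e-23 (limma). Among the gains of the whole table this peak ranked 23rd. It was the largest change of any Slc peak and the only one above 2 on this scale; centred, it remained at 1.52 (adjusted p = 0.00039, limma).

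The intronic peak of Slc25a38, 5679 bp into the gene for the glycine carrier of mitochondria, stood at 26.7 and 24.3 in Sin3B+/+ and at 70.6 and 96 in Sin3B-/-. Here and below, a distance into or from a gene is that of the peak's centre from the nearest of the gene's annotated starts. Its log2 fold change was 1.65 (adjusted p = 4.7e-13, limma), and 0.90 after centring (adjusted p = 0.0048). A peak downstream of Slc3a2, the heavy chain that carries amino acid exchangers such as Slc7a5 to the cell surface, had 14.8 and 16.4 in Sin3B+/+ and 46.2 and 52 in Sin3B-/-. It changed by 1.59 on the log2 scale (centred 0.84, adjusted p = 0.009), but it lay outside the gene, with the start of Gm22820 nearest, at 13398 bp. In Slc4a5, a sodium bicarbonate cotransporter, an intronic peak had 56.4 and 38.7 against 129 and 143, for a log2 fold change of 1.52 (centred 0.76, adjusted p = 0.0079).

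An intron of Slc43a3, which carries purine nucleobases although its family is listed with the amino acid carriers, had a peak 2158 bp into the gene, with levels of 32.4 and 28.8 in Sin3B+/+ and of 85.6 and 81 in Sin3B-/-. Its log2 fold change was 1.42, and 0.66 after centring (adjusted p = 0.011, limma). In all 5 the genotypes were further apart than the libraries within either one. That adds no support, since the peaks were picked by this difference on the same libraries. Both Sin3B-/- libraries also lay above both Sin3B+/+ libraries in 5103 of the table's 5332 peaks. All 5 were low peaks, with mean Sin3B+/+ levels from 13.9 to 47.5, where few reads carry the ratio. In steps, that is before scaling, the Slc20a2 peak had 57 and 43 in Sin3B+/+ against 109 and 73 in Sin3B-/-. In each of the other 4 the ranges of the 2 genotypes overlapped. Steps are not adjusted between libraries. Over all peaks they summed to 8705855 and 4836132 in Sin3B+/+ and to 4541377 and 3102888 in Sin3B-/-.

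**Figure D1:**
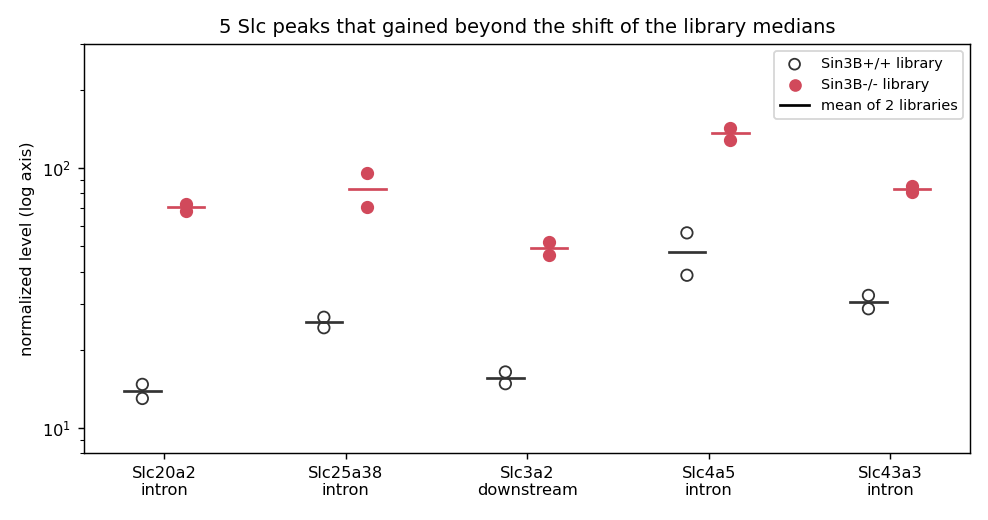
Normalized level (log axis) of 5 Slc peaks called higher in Sin3B-/- after each library was centred on its median; open circles are the 2 Sin3B+/+ libraries, filled circles the 2 Sin3B-/- libraries and lines their means, all before centring. In each peak the Sin3B-/- circles lie above the Sin3B+/+ circles, by 2.72-fold at Slc43a3 to 5.08-fold at Slc20a2.

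Amino acid carriers made the largest substrate class, with 22 peaks at 14 genes, of 69 such genes in the GENCODE M21 annotation. All 22 were higher, beside 95.7% of the table called higher. Their median log2 fold change was 0.90, with a range of 0.49 to 1.59. At least a doubling was found at 9 (40.9%), against 22.4% of the table and 29.8% of its peaks outside promoters. After centring, 2 of the 22 were called higher, beside 7.01% of the table. Classes were assigned by family, so the class also holds Slc43a3, the dopamine transporter Slc6a3 and the taurine transporter Slc6a6. Slc38a1, a sodium-coupled importer of glutamine and other neutral amino acids, had 5 peaks, more than any other Slc gene. At the strongest, 1164 bp from a start, the level was 89.4 and 57.2 in Sin3B+/+ and 199 and 173 in Sin3B-/-, a log2 fold change of 1.36 (adjusted p = 3.3e-09, limma). The other 4 changed by 0.80 to 1.18. They formed 2 groups, 3 peaks within 3606 bp downstream of a start and 2 peaks upstream of it, at 12013 and 12688 bp, and the whole set spanned 17813 bp.

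Slc3a2 had 2 further peaks near a start of its own. At the promoter peak the levels were 802 and 567 in Sin3B+/+ against 1271 and 1228 in Sin3B-/-, and at the other, 875 bp past a start inside the gene, 103 and 82.3 against 189 and 162. Their log2 fold changes were 0.89 and 0.92. Slc7a5, the light chain partner of Slc3a2 and the importer of leucine and other large neutral amino acids, had a single peak, 9171 bp into the gene. It stood at 240 and 187 in Sin3B+/+ against 398 and 374 in Sin3B-/- (log2 fold change 0.86, adjusted p = 0.00017, limma). At the peaks of both subunits, both Sin3B-/- libraries lay above both Sin3B+/+ libraries, as they did in 95.7% of the table. After centring, the peaks near or inside the 2 genes moved by 0.11 to 0.17, with adjusted p-values of 0.55 to 0.67 (limma).

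Slc7a1, which imports arginine and lysine, had 2 intronic peaks. The one at 20098 bp had levels of 642 and 479 in Sin3B+/+ and of 838 and 847 in Sin3B-/-, a log2 fold change of 0.60. This call was lost without Sin3B+/+ replicate 2 (adjusted p = 0.082) and without Sin3B-/- replicate 2 (adjusted p = 0.064), and the value fell to -0.15 after centring. The other, 57482 bp in, rose by 0.80 and kept its call in each of these fits but the centred one. At Slc6a6 an intronic peak rose from 22.4 and 19.2 to 39.99 and 57, a log2 fold change of 1.17. The smallest change of all 77 was also in this class, at Slc6a15, with 476 and 501 in Sin3B+/+ against 716 and 662 in Sin3B-/- (0.49, adjusted p = 0.022), and its call was lost without Sin3B-/- replicate 1 (adjusted p = 0.14) or 2 (0.081).

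The inorganic ion carriers had 15 peaks at 10 of 57 annotated genes and the highest class median, 0.92, with a range of 0.50 to 2.27. None of the 15 was a promoter peak and 11 lay in gene bodies. Slc20a2 and Slc4a5 are described above. Slc8a1, the plasma membrane sodium/calcium exchanger, had 3 peaks over 199781 bp, which changed by 0.80, 1.16 and 1.23. In the middle one the levels were 73.9 and 50.7 in Sin3B+/+ against 138 and 139 in Sin3B-/-.

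Slc34a1, a sodium phosphate cotransporter best known from the kidney, had 2 peaks at 0.50 and 0.63, neither of them called without either replicate 2 (adjusted p = 0.076 to 0.13), nor the former without Sin3B-/- replicate 1 (0.069). The nearest start to the first of these was that of Pfn3, at 1860 bp. Slc8b1, which moves calcium out of mitochondria in exchange for sodium, had a peak over a coding exon that changed by 0.90.

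Mitochondrial carriers of the Slc25 family had 13 peaks at 8 of 47 annotated genes, with a median log2 fold change of 0.73. The 5 promoter peaks, at Slc25a28, Slc25a39, Slc25a42, Slc25a44 and Slc25a45, changed by 0.57 to 0.86. The 6 gene body peaks, at Slc25a13, Slc25a22, Slc25a38 and Slc25a42, changed by 0.63 to 1.65. The other 2, near a start of Slc25a28 and of Slc25a45, changed by 0.64 and 0.73. Slc25a42, the carrier of coenzyme A, had promoter and gene body peaks within a single gene. Its promoter peak had 1801 and 1566 in Sin3B+/+ and 2460 and 2926 in Sin3B-/-, a log2 fold change of 0.68 that was no longer called without Sin3B-/- replicate 2 (adjusted p = 0.081). Its intronic peaks, 10715 and 11650 bp in, changed by 1.18 and 1.19, from 51.1 and 63.4 to 134 and 126 at the former and from 19.4 and 21.2 to 41.2 and 55 at the latter. Slc25a28, also called mitoferrin 2, which brings iron into mitochondria, had a promoter peak of 1793 and 1428 against 2362 and 2377 (0.57). This peak also lay in the promoter of AC138790.1, whose start was nearer, at 38 bp. At Slc25a39, the mitochondrial glutathione carrier, the promoter peak had 666 and 471 against 788 and 927 (0.61). The call at the Slc25a28 promoter was lost without Sin3B+/+ replicate 2 (adjusted p = 0.076), without Sin3B-/- replicate 1 (0.06) and without Sin3B-/- replicate 2 (0.077), and that at the Slc25a39 promoter without either replicate 2 (adjusted p = 0.11 for both). Both were below 0 after centring, at -0.19 and -0.14.

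Sugar and monocarboxylate carriers had 6 peaks at 6 genes of 48, with a median of 0.81. The largest change was at Slc37a3, 43326 bp from the gene's start and past its end, with 79.86 and 50.04 in Sin3B+/+ against 121 and 150 in Sin3B-/- (1.08). Slc16a7, a carrier of lactate and pyruvate, followed with an intronic peak of 25.1 and 28.8 against 53.1 and 57 (1.01). The window of the Slc16a10 peak (0.80), in a gene whose product carries aromatic amino acids despite its family, was the 1 Slc window with more than 50% of bases masked as repeats, at 66.3%.

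Nucleoside and nucleotide sugar carriers, all of the Slc35 family, had 6 peaks at 5 of 34 genes and a median of 0.71. Both peaks of Slc35c2 stood highest in the class, at 0.93 and 0.91. The former, 1934 bp into the gene, had 105 and 89.1 in Sin3B+/+ against 174 and 198 in Sin3B-/-. Slc35c1, which brings GDP-fucose into the Golgi, had an intronic peak at 0.76, and the promoter peak of Slc35a4 (0.66) was shared with Apbb3, whose start was 2 bp from the peak's centre. Without Sin3B-/- replicate 2 neither of these was called (adjusted p = 0.068 and 0.054), nor was the Slc35a4 peak without Sin3B+/+ replicate 2 (0.06).

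The 3 metal carrier peaks, at 3 of 32 genes, included 2 zinc importers. Slc39a4 had 163 and 172 in Sin3B+/+ and 279 and 321 in Sin3B-/- at a peak 331 bp into the gene (0.83, adjusted p = 0.00025, limma). The promoter of Slc39a13 had 1302 and 1146 against 1952 and 2168 (0.75). Slc11a1, a divalent metal carrier of phagosomes, had a peak downstream of the gene with 510 and 423 against 671 and 722 (0.58), not called without Sin3B+/+ replicate 2 (adjusted p = 0.051) or Sin3B-/- replicate 2 (0.09). Vitamin and cofactor carriers had 2 peaks at 2 of 19 genes: one 1737 bp into Slc48a1, a heme transporter, with 217 and 221 against 365 and 369 (0.74), and one at the shared promoter of Slc52a2, a riboflavin transporter, and Fbxl6, with 361 and 279 against 523 and 536 (0.73). After centring, Slc39a13, Slc48a1 and Slc52a2 were within 0.02 of 0, so they moved with the library medians.

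The carriers of organic ions, lipids and other substrates had the lowest class median, 0.61, over 7 peaks at 5 of 62 genes. Slc14a1, a urea transporter that carries the Kidd antigen on red cells, had 3 of them. Its intronic peak had 33.5 and 35.3 in Sin3B+/+ against 56.9 and 80 in Sin3B-/- (0.95), and its promoter peaks changed by 0.86 and 0.79. Slc18a2, the vesicular monoamine transporter, had 376 and 338 against 544 and 515 (0.57). That call was lost without either Sin3B-/- library (adjusted p = 0.079 and 0.06), and Gm29261 had the nearer start, at 124 bp. The peak of Slc22a3, a carrier of organic cations, had 367 and 339 against 497 and 587 (0.61), and its call was lost without Sin3B-/- replicate 2 (adjusted p = 0.11). The 3 symbols that are not transporters, Slc9a3r1, Slc25a5-ps and Slc13a2os, were at 0.57, 0.62 and 1.09, and the call of the first was lost without either replicate 2 (adjusted p = 0.086 and 0.1) and that of the next without Sin3B-/- replicate 1 (0.12).

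**Figure D2:**
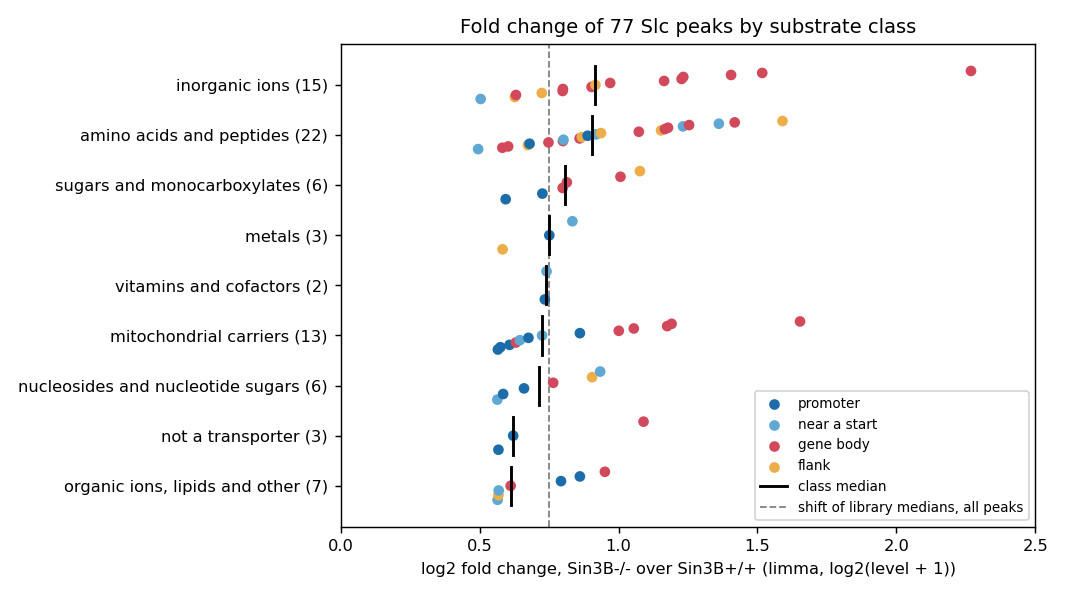
log2 fold change (Sin3B-/- over Sin3B+/+) of the 77 Slc peaks by substrate class, with the number of peaks in parentheses; each point is a peak coloured by position, the black line is the class median and the dashed line the 0.75 shift of the library medians over the whole table. Class medians run from 0.61 to 0.92 while single peaks run from 0.49 to 2.27, so the classes overlap.

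By position, 17 of the 77 peaks (22.1%) had their centre from 1000 bp before to 100 bp after an annotated start, against 33.3% of the whole table. A further 14 (18.2%) lay within 2000 bp of a start, 34 (44.2%) in the body of the named gene and 12 (15.6%) in its flanks, against 13.8%, 33.7% and 19.2% of the table. The share at promoters moved with the definition. With 2000 bp on both sides it was 31 of the 77, against 2510 of the table's 5332 peaks. By the distance in the deposited table it was 12, against 1117. Median log2 fold changes of the Slc peaks were 0.68 at promoters, 0.73 near a start, 0.89 in the flanks and 1.0 in gene bodies. In the whole table the medians were 0.67, 0.77, 0.81 and 0.86 in the same order. Of the promoter peaks 0 of 17 doubled, against 18 of 34 (52.9%) in gene bodies, and over all peaks 7.55% of those at promoters and 34% of those in gene bodies did so. No test was made of these differences.

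Level moved with position. The median level per kb of peak was 778.5 in the Slc promoter peaks and 232.4 in the gene body peaks, and 737.3 and 253.2 in the table. Across the 77 Slc peaks, the mean level and the log2 fold change had a Spearman correlation of -0.75, and of -0.68 across all table peaks higher in Sin3B-/-. These points share the same 4 libraries. A low peak also needs a larger fold to enter a table of peaks that differ, so the table's own selection bears on this relation, and its part was not tested. Outside promoters the correlation was -0.73 and at the 17 promoter peaks -0.31.

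**Figure D3:**
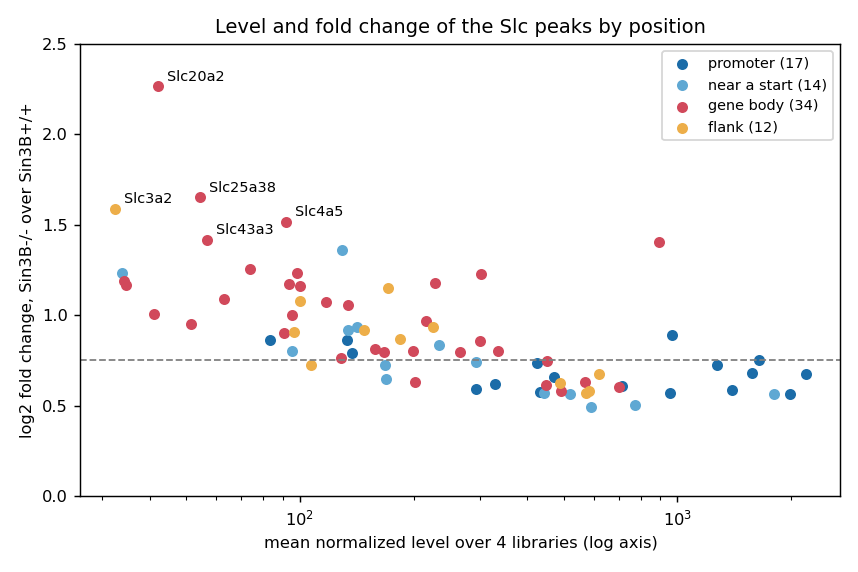
Mean normalized level over the 4 libraries (log axis) against the log2 fold change of each of the 77 Slc peaks, coloured by position, with the dashed line at the 0.75 shift of the library medians; 5 of the 6 peaks called after centring are named. Fold change falls as level rises (Spearman -0.75), and most promoter peaks lie to the right, at 0.57 to 0.89.

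The gene that a peak is named for was not always the one with the nearest start. For 51 of the 77 Slc peaks (66.2%) the nearest annotated start belonged to the named gene, against 72.4% in the table. Of the 17 promoter peaks, 4 also lay in the promoter of another gene: Slc25a28, Slc25a5-ps, Slc35a4 and Slc52a2. The peak with the largest change of the 77, in Slc20a2, was 88948 bp from that gene's own start. It was 28022 bp from the start of Vdac3, which encodes a mitochondrial outer membrane channel.

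Several transporter genes gathered more than one of the peaks. There were 13 with at least 2 (23.2% of the Slc symbols, against 16.6% of all symbols) and 6 with 3 or more. Slc38a1 had 5, while Slc3a2, Slc8a1, Slc14a1 and Slc25a42 had 3 each. All 17 peaks of these 5 genes were higher in Sin3B-/-, beside 95.7% of the table called higher. Within a gene the log2 fold changes ran from 0.79 to 0.95 at Slc14a1, for example, and from 0.89 to 1.59 at Slc3a2. Neighbouring peaks share a locus and are not independent.

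**Figure D4:**
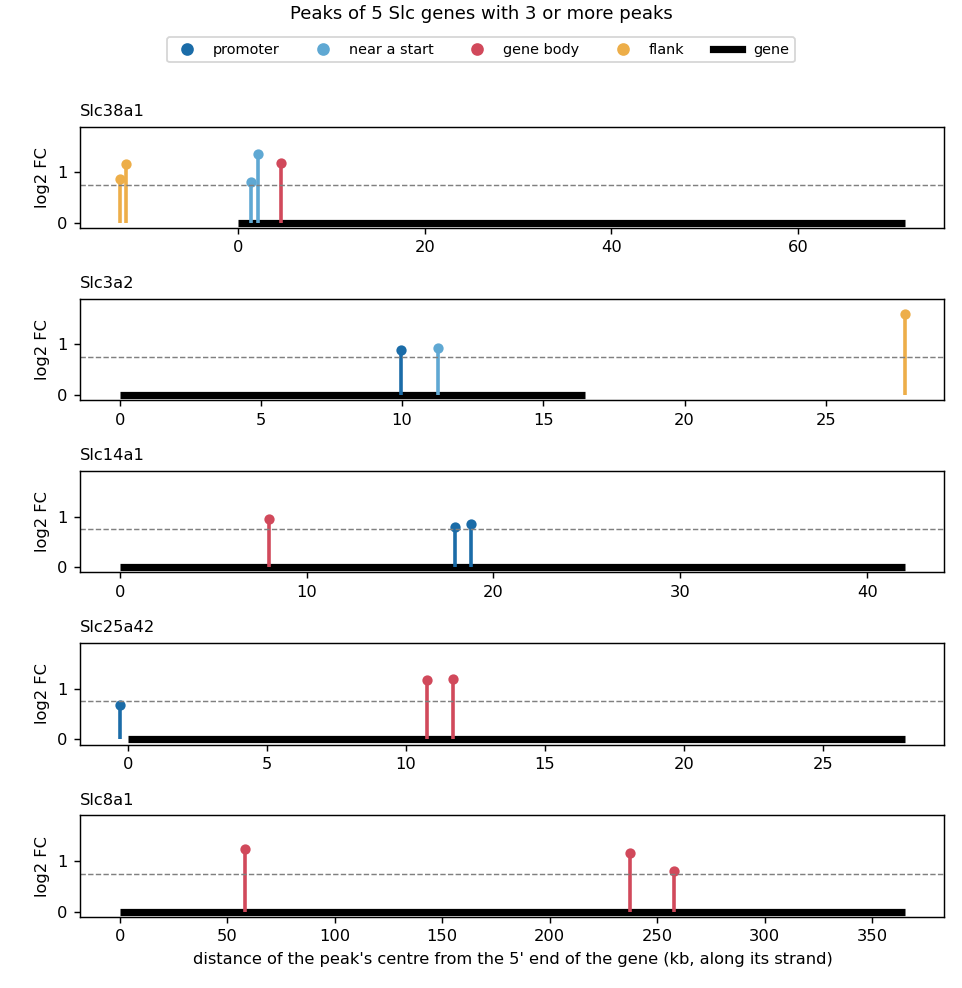
log2 fold change of each peak against the distance (kb) of its centre from the 5' end of the gene, along its strand, for 5 Slc genes with 3 or more peaks; the black bar is the gene, colours give the position and the dashed line is the 0.75 shift, with a separate distance scale per gene. All 17 peaks are above 0, and in Slc25a42 the intronic peaks (1.18 and 1.19) stand above the promoter peak (0.68).

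The base composition of the Slc windows was close to that of the table, with a median GC content of 53.7% against 54% and a median of 6 CpG against 7. The motifs were searched as letters on both strands in the 300 bases around each centre. The CCAAT box (CCAAT) occurred in 36.4% of Slc windows against 35.5% of all, the GC box (GGGCGG) in 26% against 30.4%, the GATA motif (AGATAA) in 18.2% against 17.9%, AP-1 (TGANTCA) in 9.09% against 10.4% and the E-box (CACGTG) in 6.49% against 6.86%. Elements tied by name to nutrients and metals were the amino acid response element (TGATGNAAN), in 3 windows or 3.9% against 3.02%, the antioxidant response element (TGACNNNGC), in 16 or 20.8% against 16.8%, and the MTF-1 core (TGCACAC), in 9 or 11.7% against 5.59%. The CHR element (TTTGAA) was in 5 windows, 6.49% against 13.6%, and the RUNX motif (TGTGGTTT) in 1, or 1.3% against 5.29%. The E2F motif (TTTCCCGC or TTTGGCGC) and the CRE (TGACGTCA) were in 1 window each, or 1.3% against 1.24% and 1.99%, and the ETS motif (ACCGGAAGT or ACAGGAAGT) in 2, or 2.6% against 3.98%. Matches to AP-1 and to the antioxidant response element can overlap, since both can begin with TGAC. A match describes the letters only, and the shares were not tested.

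Transport genes outside the Slc names gave similar values. There were 31 peaks at 27 genes, with a median log2 fold change of 0.72 against 0.76 over the table. Of these, 30 were higher and 1 lower, beside 95.7% called higher and 4.29% lower in the table. The 31 were 14 peaks of ABC genes, 7 of P-type pumps, 3 of the V-type ATPase and 7 of other carriers. ABC genes were taken by symbol and include Abcf2, which is not a transporter. The organic anion carriers named Slco had 0. The lower one was in Abcc8, a subunit of a potassium channel complex, with 116 and 106 in Sin3B+/+ and 56.9 and 61 in Sin3B-/- (-0.90, adjusted p = 8.2e-05, limma). A list of regulators of transporter genes, which also held the ferritin gene Ftl1, had 15 peaks at 11 genes. All were higher, beside the same 95.7% of the table. Their median was 0.67. Mtf1, the zinc sensor that binds the MTF-1 core, had a promoter peak of 831 and 596 in Sin3B+/+ against 1751 and 1727 in Sin3B-/-. Its log2 fold change was 1.30, still called after centring (0.55, adjusted p = 0.032, limma). It was the only 1 of the list's 15 peaks called then, beside 7.01% of the table called higher. The other Mtf1 peak, in the gene body, changed by 0.97 and was not called after centring (0.22, adjusted p = 0.41, limma). Nfe2l2, which acts at antioxidant response elements, had peaks at 0.68 and 0.67, and Myc a promoter peak at 0.55, and these 3 were below 0 once centred.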

How the data were processed

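ATAC-Seq had been run on 2 Sin3B+/+ and 2 Sin3B-/- libraries. The authors ran FastQC and Trimmomatic, aligned with Bowtie2, removed duplicates, called peaks with MACS2 and tested a DiffBind peak set with DESeq2. Versions and the DiffBind normalization are not given in the sources used here. The deposited table holds peaks with an FDR below 0.05, and its values per library are a signal, normalized reads per peak. Its columns of the authors' fold changes and p-values were not used. The submitters' processing notes name mm9, but 96.6% of the gene bounds of the 5330 peaks with a GENCODE M21 identifier were those of that annotation, so positions were read on GRCm38. The deposited distances to the feature, in base pairs, served as 1 alternative for promoters.

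Levels were compared as log2(level + 1) with limma 3.58.1 in R 4.3.3 over all 5332 peaks, with Benjamini-Hochberg adjustment and a threshold of 0.05. Fold changes on that scale understate the change of low peaks. The fit was checked on simulated data. Leaving out 1 library leaves a lone library in its genotype, which is assumed to vary like the others. Promoters were peak centres from 1000 bp before to 100 bp after a GENCODE M21 basic start. Substrate classes were assigned by family number. Peaks named by rule were any lower ones, the 2 largest changes of each class, all peaks of genes with 3 or more, those of 27 listed genes of interest in blood cells, of which 8 had a peak, and those called after centring. That gave 38 peaks, of which 35 are reported here, and the others named were picked after their values were seen. The members, lists and motifs were chosen with earlier results of these data known. Total depth is unknown here, and the steps were used for description alone. Tables, sequences and plots were made in Python 3.11.15 (pysam 0.24.0, pandas 2.3.3, matplotlib 3.10.9).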

Additional observations from a re-analysis of the deposited data

How the results depend on the processing

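The Slc peaks called higher were 77 and those called lower 0 with a pseudocount of 0.5 or 8, with a variance trend and robust fitting, and with the replicate block, whose median log2 fold change was also 0.80. The samples were from different mice, and whether same-numbered libraries were prepared together is not given in the sources used here. The deviations of same-numbered libraries correlated at -0.101. With the crossed pairing 77 were called. Without the 21 Slc peaks of mean level below 107.2, all 56 others were called. Centring the libraries took the count to 6, or 7 together with the replicate block, and the median from 0.80 to 0.05, since it removes the shift of 0.75 by construction. Leaving out 1 library gave 51 to 77 calls, 0 called lower each time, and medians of 0.69 to 0.92. Counted at 1 value a gene, the median was 0.80, and for transporters alone 0.81. Promoter peaks numbered 31 with 2000 bp on both sides (2510 in the whole table) and 12 by the deposited distance (1117 in the whole table). Of the 35 peaks reported by rule, 7 fell below 0 after centring: Slc18a2 (-0.18), Slc7a1 (-0.15), Slc22a3 (-0.14), Slc25a42 (-0.08), Slc52a2 (-0.02), Slc48a1 (-0.01) and Slc39a13 (-0.0011). A further 23 kept their direction without a call. The 5 that stayed called say nothing on robustness, because peaks called after centring were among those named by rule. The planned tests of counts (edgeR, DESeq2) and another scaling (TMM) were not run on the reads inferred from the steps. Pools of 2 mice and 2 libraries per genotype limit what any single peak can show.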

Other observations

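Peaks named for another gene also lay at solute carriers. There were 6, and all were higher in Sin3B-/-. Those in a promoter of an Slc gene were named for Dbf4 (Slc25a40), Fkbp15 (Slc31a1, a copper importer) and Sgsh (Slc26a11), and those inside an Slc gene for Gm13872 (Slc1a2, a glutamate transporter), Gm44981 (Slc6a6) and Myd88 (Slc22a14). The log2 fold changes ran from 0.46 at Myd88 to 0.61 at Fkbp15, Gm13872 and Sgsh, below the table median of 0.76. At Fkbp15 the levels were 798 and 617 in the Sin3B+/+ libraries and 998 and 1146 in the Sin3B-/- libraries, and at Gm44981 they were 701 and 611 against 900 and 997. In each of the 6 both Sin3B-/- libraries stood above both Sin3B+/+ libraries, as they did in 95.7% of all peaks of the table. Of the 6 Slc genes, 5 have no peak under their own symbol, and Slc6a6 has the intronic peak described above.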
